A study of Mus musculus with 6 samples.

Results

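The 37 genes described here mark monocytes and macrophages. They were taken as a fixed list of symbols, and all 37 had at least 1 probe set among the 18193 genes that the array names by a single symbol. Together they had 71 of the 45037 probe sets other than controls, and each gene is given by its brightest probe set unless stated. Signals are linear intensities as deposited, listed in the order DKO 1, DKO 2, DKO 3 and WT 1, WT 2, WT 3, and differences are knockout minus wild type on the log2 scale. The arrays measured total RNA of mouse bone marrow cells of strain C57BL/6, cultured in medium with 20% fetal bovine serum and 10 ng/ml interleukin-7, a cytokine that sustains early B lymphocytes. One genotype lacked the circadian repressors Cry1 and Cry2 (DKO 1, DKO 2 and DKO 3), and the other was wild type (WT 1, WT 2 and WT 3), with 3 arrays each and the same strain and culture for both. What is not given in the sources used here is the age of the mice, the alleles, the time of day, and whether the arrays of a genotype came from separate animals or cultures. The p-values therefore reflect only the spread of these 6 arrays, which may be technical, and so small a number of arrays limits precision.

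Monocytes arise in the marrow from myeloid progenitors under the transcription factor PU.1, and signalling through the CSF1 receptor keeps them and the macrophages they form alive. Their shared equipment lets them bind microbes, antibodies and dead cells, engulf them and digest them in lysosomes. Many of these proteins are also made by granulocytes and by dendritic cells, so the genes differ in how closely they mark the lineage. Adgre1, Mrc1 and Cd163 are close to macrophages. Itgam, Tyrobp, Fcer1g, Cybb, Clec4d and Clec4e are shared with neutrophils, and the cathepsins Ctsb and Ctsd are made by most cells.

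The genomic stretches before the start sites of some of these genes are shown because several carry the core letters to which PU.1 binds. RefSeq start sites of build GRCm38.p6 were listed for 27 of the 37 genes, and the 250 bases upstream of each were searched on both strands for GAGGAA, which on the opposite strand appears as TTCCTC, and for the E-box CACGTG, the element through which CLOCK and BMAL1 act and cryptochromes repress. None of the windows printed below held the E-box. The upstream windows of 14 of the 27 genes (51.9%) held GAGGAA, where 25.9% of 27025 genes with such windows did. The E-box stood before 1 of the 27 (3.7%), Ctsd, where 6.86% of all genes had it. The windows below were chosen after the search to show where matches lie, each 5′ to 3′ on its gene's strand, with GAGGAA or TTCCTC in capitals.
Itgam, chr7:128062390-128062639, plus strand: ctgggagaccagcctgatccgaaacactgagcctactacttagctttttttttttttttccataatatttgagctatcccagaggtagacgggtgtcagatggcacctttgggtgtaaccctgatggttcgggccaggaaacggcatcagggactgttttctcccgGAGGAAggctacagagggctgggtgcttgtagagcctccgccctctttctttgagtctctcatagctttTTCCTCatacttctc
Cd68, chr11:69666171-69666420, minus strand: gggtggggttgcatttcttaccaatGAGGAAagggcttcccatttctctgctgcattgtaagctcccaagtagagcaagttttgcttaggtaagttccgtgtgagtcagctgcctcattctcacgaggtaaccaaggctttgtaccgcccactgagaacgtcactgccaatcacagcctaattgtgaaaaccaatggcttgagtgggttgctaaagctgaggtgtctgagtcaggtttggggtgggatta
Clec4d, chr6:123261857-123262106, plus strand: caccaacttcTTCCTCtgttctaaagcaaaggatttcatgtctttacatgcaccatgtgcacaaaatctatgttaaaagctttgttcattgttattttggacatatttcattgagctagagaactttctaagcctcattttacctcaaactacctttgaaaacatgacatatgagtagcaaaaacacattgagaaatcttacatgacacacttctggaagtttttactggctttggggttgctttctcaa
Clec4e, chr6:123289872-123290121, minus strand: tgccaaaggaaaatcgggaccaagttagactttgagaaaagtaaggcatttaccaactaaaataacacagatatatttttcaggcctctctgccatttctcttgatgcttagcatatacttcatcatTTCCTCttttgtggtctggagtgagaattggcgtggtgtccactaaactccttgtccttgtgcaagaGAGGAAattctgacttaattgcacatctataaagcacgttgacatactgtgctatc
Ctss, chr3:95526536-95526785, plus strand: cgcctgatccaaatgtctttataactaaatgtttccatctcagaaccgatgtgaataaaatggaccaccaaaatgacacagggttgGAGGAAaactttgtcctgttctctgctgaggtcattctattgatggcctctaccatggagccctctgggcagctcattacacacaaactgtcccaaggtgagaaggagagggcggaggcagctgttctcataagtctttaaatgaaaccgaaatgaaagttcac
The Itgam window held matches whose first letter lay 84 and 15 bases before the start, and the Clec4e window held them at 123 and 56. Cd68, Clec4d and Ctss had 1 match each, at 225, 240 and 164 bases. Clec4d and Clec4e are neighbours on chromosome 6 with 0 protein-coding genes between them, as are Clec4n and Clec4d, and Lyz2 and Lyz1 are neighbours on chromosome 10. A match is a run of letters and was not tested for binding.

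Across the series, WT 2 stood apart from the other 5 arrays. Its 3′ to 5′ signal ratio was 824 for Actb controls and 132 for Gapdh, against 1.47 to 2.05 and 0.838 to 1.72 elsewhere, and its correlation with the other arrays over all probe sets was 0.832 to 0.848, where pairs of the other 5 gave 0.956 to 0.982. Cry1 read 359 to 545 on DKO arrays and 955 to 1533 on WT arrays, and Cry2 read 133 to 178 and 102 to 145. Whether these probe sets lie in the deleted parts is not analysed here, so they do not test the labels. B lineage markers had high signal on all arrays, with a summed signal of 71553 to 119277 in DKO and 77293 to 147815 in WT. With the scaling used, the median of all 12627 tested genes was itself 0.30 higher in DKO on the log2 scale (0.01 without WT 2, 0.01 with quantile normalization and -0.01 without centring), and differences below are to be read against it.

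With all 6 arrays weighted equally, no monocyte or macrophage gene passed the test between genotypes, although most read lower on average in the knockout cells. Of the 37, 34 were bright enough to be tested, and 0 had a limma adjusted p under 0.05 in either direction, where 0% of all tested genes were called lower and 0.00792% were called higher. At an unadjusted p under 0.05, 4 were lower (Csf1r, Clec4d, Tyrobp and Lgals3), against 1.12% of all tested genes, and 0 were higher, against 2.15%. The mean signal was lower in DKO for 28 of the 34 genes, against 29.8% of all tested genes, and for 31 both with quantile normalization (49.1%) and without centring (50.6%). Their median log2 difference was -0.66, with values from -2.57 for Clec4d to 1.46 for Apoe. A mean lower by at least 1 on the log2 scale was seen for 8 (1.52% of all tested genes). With array weights, which rate each array by its distance from its group and gave 0.0623 to WT 2, 0.535 to DKO 3 and 1.22 to 4.39 to the others, 12 of the 34 passed limma, all lower, against 1.57% of all tested genes, with a smallest adjusted p of 0.0339. They were Csf1r, Cd68, Adgre1, Ms4a7, Clec4d, Tyrobp, Trem2, Cybb, Slc11a1, Maf, Lgals3 and Tgfbi, and the weights were estimated from these same arrays. In the other settings the smallest adjusted p of the list was 0.442 to 0.971. Without WT 2 the mean was lower for 31 of 34, against 48.3% of all, with a median of -1.01. The 34 genes had passed a filter on mean signal, and a gene that passes through the brighter genotype alone must differ, so these counts describe the tested genes and are not a test.

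The order of the arrays did not follow genotype alone. DKO 1 and DKO 2 read low, WT 1 read high, and DKO 3 lay between the wild type arrays. The median over the 34 genes, each against its own mean over the 6 arrays, was -0.58 on DKO 1, -0.92 on DKO 2 and 0.59 on DKO 3. It was 1.23 on WT 1, -0.09 on WT 2 and -0.08 on WT 3. DKO 3 lay above both other knockout arrays for 29 of the 34 genes (53.8% of all tested genes) and by at least 1 on the log2 scale for 20 (4.96%). It lay between WT 1 and WT 3 for 27 (32.1%). Among the 5 arrays other than WT 2, WT 1 was highest for 30 of the 34 (10.3%), and DKO 1 or DKO 2 was lowest for 31 (47%). DKO 1 and DKO 2 were both below WT 1 and WT 3 for 25 of 34 genes (30.2%). They were below every WT array for 18 of 34 genes (10.2%), and with DKO 3 included all knockout arrays were below all WT arrays for 2, Itgam and Spic (2.06%), and above all WT arrays for 0 (8.53%). WT 2 lay farther than 1 on the log2 scale from the mean of WT 1 and WT 3 for 20 (50.7%). The median gap of DKO 3 to the mean of DKO 1 and DKO 2 was 1.59, which is larger in size than the median difference between genotypes. Leaving out DKO 3 gave a median of -1.20 with 29 of 34 lower and 10 with an unadjusted p under 0.05 (2.14% of all tested genes), and 0 passed limma's adjusted threshold. Leaving out WT 1 gave a median of -0.26 with 22 lower. In these bulk cultures fewer cells of a type and less RNA per cell cannot be told apart.

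**Figure D1:**
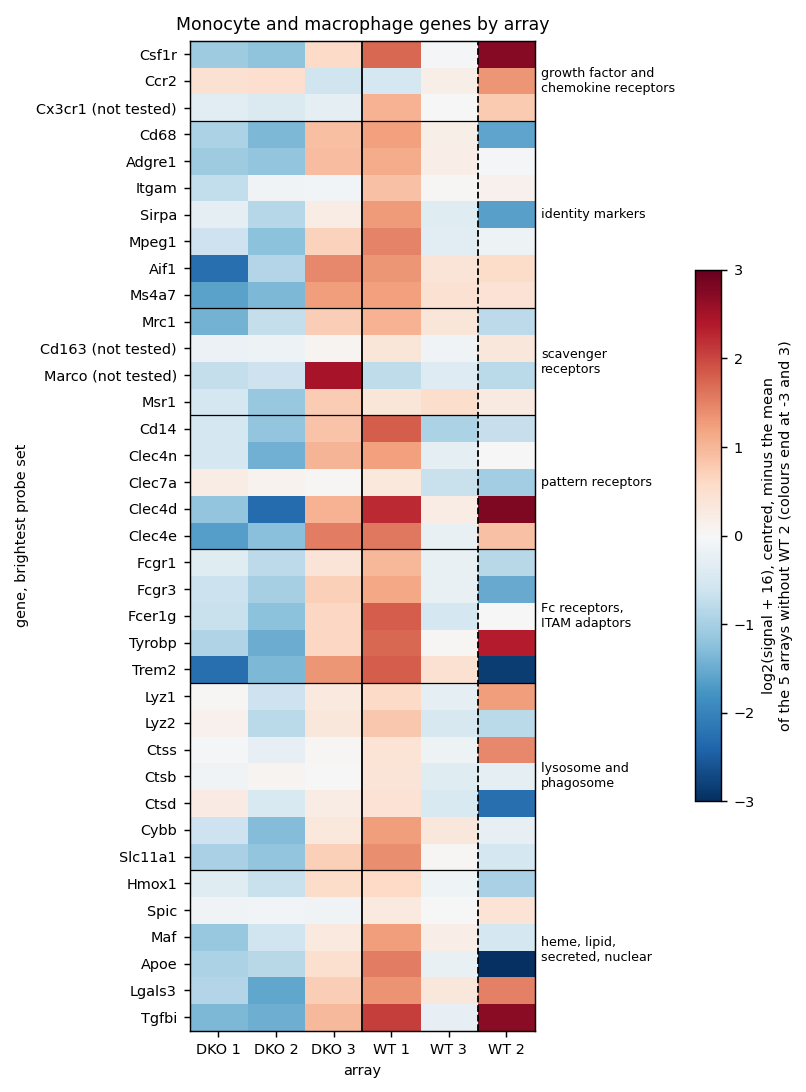
Each row is 1 gene and each column 1 array, coloured by centred log2(signal + 16) minus the gene's mean over the 5 arrays without WT 2, with WT 2 set apart on the right and genes grouped by role. DKO 1 and DKO 2 are mostly blue, WT 1 is mostly red, and DKO 3 is red for most surface and receptor genes. Outside the WT 2 column, the lysosome rows Ctss, Ctsb and Ctsd are pale while Cybb and Slc11a1 are not.

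Of the receptors that set the lineage or its movement, Csf1r read lower on DKO 1 and DKO 2 than on any wild type array. Csf1r, the receptor for CSF1 and interleukin-34, had signals of 1012, 910 and 2703 on the knockout arrays and 7067, 26294 and 1819 on the wild type arrays. DKO 3 exceeded WT 3, so the genotypes overlapped. The knockout level was 10.58 ± 0.99 on the log2 scale (SD, n = 3) and the wild type level 12.62 ± 1.40 (SD, n = 3), a difference of -2.04 (SE 0.81, limma adjusted p = 0.822), and -1.41 without WT 2. The other Csf1r probe sets differed by -1.67 and -0.90, and the 3 stood 1.88, 0.88 and -0.38 from the mean of WT 1 and WT 3 on WT 2, so the size on that array depended on the probe set. Ccr2, the chemokine receptor with which monocytes leave the marrow, ran otherwise. Its brightest probe set had signals of 76.9, 77.7 and 21.4 on the knockout arrays and 29.9, 297 and 50.8 on the wild type arrays, and DKO 3 was the lowest array. Its difference was -0.21 with all arrays and 0.30 without WT 2, and its 3 tested probe sets did not share a sign. Cx3cr1, the fractalkine receptor of patrolling monocytes, was too dim to test, at 10.9 to 14.5 in DKO and 17.4 to 106 in WT, below or near the arrays' median signals of 44.0 to 115.

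All 7 identity markers read lower on average in DKO, with a median of -0.71 (-1.09 without WT 2) and 0 past the threshold. Ms4a7, a membrane protein of macrophages, had signals of 215, 253 and 1405 on the knockout arrays and 1612, 1741 and 827 on the wild type arrays. It was low on DKO 1 and DKO 2 and on the level of the wild type on DKO 3. Its difference was -1.28 (SE 0.80, limma adjusted p = 0.822), and DKO 3 stood 2.75 above the mean of DKO 1 and DKO 2. Adgre1, which encodes the macrophage antigen F4/80, read 192, 173 and 677 against 910, 755 and 417, with DKO 3 again above WT 3. Aif1, an actin-binding protein of activated macrophages, read 3.05, 32.9 and 193 against 209, 231 and 88.9. Cd68, a lysosomal membrane glycoprotein, read 382, 281 and 1194 against 1769, 463 and 749, so that WT 2 was close to the low knockout arrays. Its difference was -0.42, and -1.18 without WT 2. Mpeg1, a pore-forming protein of phagosomes, read 1378, 879 and 2873 against 5877, 3506 and 1436. WT 3 lay close to DKO 1 and below DKO 3. Sirpa, the inhibitory receptor for CD47, read 349, 225 and 417 against 1040, 247 and 284, and its difference was -0.06 (-0.76 without WT 2). Itgam, the CD11b integrin chain, was dim and read 27.0, 49.7 and 40.6 against 114, 127 and 48.5 as deposited. Once the arrays were centred, every knockout array lay below every wild type array, with a difference of -0.66 (SE 0.35, limma adjusted p = 0.822).

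Scavenger receptors, which take up modified lipoproteins, sugars and hemoglobin, were partly below the tested range. Mrc1, the mannose receptor, had signals of 63.6, 111 and 286 on the knockout arrays and 418, 211 and 221 on the wild type arrays, a difference of -0.67 (-1.16 without WT 2). Msr1, the class A scavenger receptor, read 72.2, 40.2 and 166 against 143, 264 and 144, so WT 1 and WT 3 were alike and DKO 3 lay above both as deposited. Its difference was -0.68 (SE 0.50). Cd163, the hemoglobin-haptoglobin receptor of resident macrophages, read at most 37.1 on any array and was not tested. Marco, a bacteria-binding scavenger receptor, read 130 on DKO 3 and 1.95 to 16.7 on the other 5, and was not tested either. Its other probe set read 6.47 on DKO 3, so the high value rests on 1 probe set of 1 array.

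Receptors for microbial patterns held the gene with the largest difference of the list. Clec4d, a C-type lectin for fungal and mycobacterial glycolipids, had signals of 383, 161 and 1546 on the knockout arrays and 4164, 11589 and 899 on the wild type arrays. DKO 3 lay above WT 3, and the values spread 4.55 on the log2 scale over the 5 arrays other than WT 2. Its difference was -2.57 (SE 1.01, limma adjusted p = 0.822), -2.05 without WT 2 and -3.50 without DKO 3. Clec4e, its neighbour, which encodes the lectin Mincle, read 35.1, 49.9 and 379 against 463, 531 and 105. Clec4n, the next gene, which encodes Dectin-2, read 489, 244 and 1218 against 1665, 1311 and 505. All 3 neighbouring lectins were lowest on DKO 1 or DKO 2 and high on WT 1 and DKO 3. Cd14, the co-receptor for lipopolysaccharide, read 173, 103 and 397 against 929, 297 and 107, and WT 3 was as low as DKO 2. Clec7a, the beta-glucan receptor Dectin-1, did not follow this order. It read 931, 834 and 680 against 975, 706 and 426, a difference of 0.59 (SE 0.47), and 0.30 without WT 2.

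Fc receptors bind antibody-coated particles, and the adaptor Fcer1g carries their signal and that of several lectins into the cell through an ITAM motif. Tyrobp is an ITAM adaptor of other receptors, among them Trem2. Tyrobp had signals of 757, 485 and 1866 on the knockout arrays and 4718, 13510 and 1281 on the wild type arrays. The knockout mean was 9.97 ± 1.10 (SD, n = 3) and that of the wild type 11.93 ± 1.19 (SD, n = 3), a difference of -1.96 (SE 0.79, limma adjusted p = 0.822). It was -1.48 without WT 2, and DKO 3 lay above WT 3. Fcer1g read 616, 403 and 1287 against 3492, 1864 and 593, with WT 3 close to DKO 1 as deposited. Trem2, a lipid receptor that signals through Tyrobp, read 11.1, 34.2 and 255 against 436, 17.1 and 139. Here WT 2 stood at -3.99 from the mean of WT 1 and WT 3, and the difference of -0.57 became -1.90 without it. Another Trem2 probe set read 163 on WT 2, the highest of the 6 arrays for it. Fcgr3, the low-affinity IgG receptor, read 362, 275 and 801 against 1293, 365 and 424, and Fcgr1, the high-affinity one, read 106, 72.9 and 157 against 296, 146 and 101. Their differences were -0.12 and -0.24, and -0.78 and -0.65 without WT 2.

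**Figure D2:**
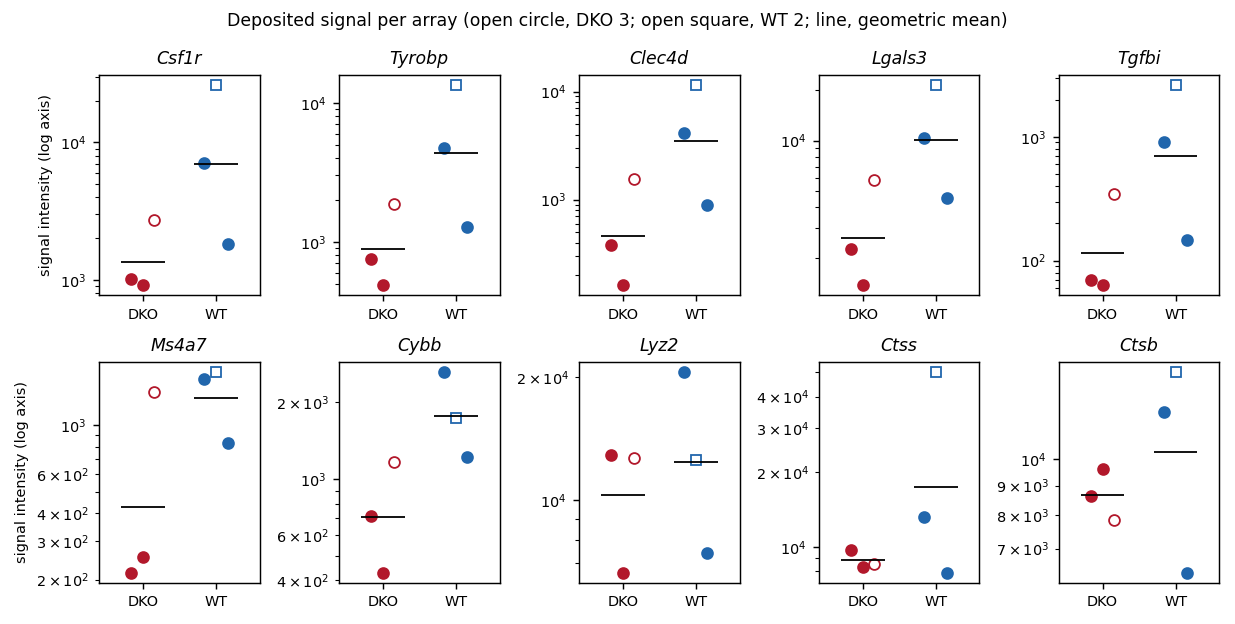
Deposited signal intensity on log axes for 10 genes, 1 point per array, with DKO 3 as open circles, WT 2 as open squares and the geometric mean of 3 arrays as a line. For the first 7 genes DKO 1 and DKO 2 lie below all WT arrays. DKO 3 lies above WT 3 for Csf1r, Tyrobp, Clec4d, Lgals3, Tgfbi and Ms4a7, so the genotypes overlap there. They also overlap for Lyz2, Ctss and Ctsb.

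Lysosome and phagosome proteins split into steady and variable genes. Ctss, the cathepsin that trims the invariant chain of MHC class II, had signals of 9673, 8290 and 8564 on the knockout arrays and 13127, 50282 and 7876 on the wild type arrays. Apart from WT 2 its arrays lay within 0.65 on the log2 scale, and its difference was -0.66 with all arrays and -0.22 without WT 2. Ctsb, a cysteine protease of most lysosomes, read 8639, 9626 and 7840 against 12058, 14177 and 6355, a difference of 0.07 (SE 0.31), of the opposite sign with quantile normalization (-0.02) and without centring (-0.25). Ctsd, an aspartic protease, read 3584, 2129 and 2960 against 4003, 1141 and 1907, a difference of 0.77 that was 0.01 without WT 2. Other Ctsb probe sets stood at -3.59 and -5.88 from the mean of WT 1 and WT 3 on WT 2, where the brightest stood at -0.30. Lyz2, the lysozyme of macrophages and neutrophils, read 12911, 6642 and 12639 against 20554, 12544 and 7404. Its difference was 0.04 (SE 0.51), and it was -0.28 without WT 2, -0.05 with quantile normalization and -0.27 without centring. Lyz1 is a near-identical copy, and its bright probe sets read 18131, 11213 and 18023 against 25711, 77703 and 12659 for the first and 16645, 10007 and 16308 against 23720, 74475 and 11309 for the second. The remaining probe set of Lyz1 read 15.3 to 111, so how much of the bright Lyz1 signal comes from Lyz2 transcripts was not tested. Cybb, the catalytic chain of the phagocyte NADPH oxidase, read 716, 428 and 1167 against 2631, 1736 and 1221, with every knockout value below every wild type value as deposited. Centring placed WT 2 at 9.96, below DKO 3 at 10.52. Its difference was -0.99 (SE 0.61, limma adjusted p = 0.822), and -1.33 without WT 2. The other Cybb probe sets differed by -0.79 and -0.14, and on both DKO 3 read above WT 3 as deposited. Slc11a1, the metal transporter NRAMP1 of phagosomes, read 142, 119 and 418 against 788, 384 and 265.

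The remaining genes concern heme, lipids, secreted proteins and transcription factors. Lgals3, the carbohydrate-binding protein galectin-3, had signals of 2242, 1368 and 5794 on the knockout arrays and 10375, 21584 and 4557 on the wild type arrays. DKO 1 and DKO 2 were low and DKO 3 exceeded WT 3, with a difference of -1.63 (SE 0.65, limma adjusted p = 0.822). Tgfbi, a secreted matrix protein of monocytes, read 70.3, 63.0 and 348 against 901, 2642 and 147, a difference of -2.13 (SE 0.94, limma adjusted p = 0.822) that was -1.53 without WT 2. Its 4 probe sets were all lower on average in DKO, at -2.13, -1.27, -1.22 and -0.78. Apoe, the lipid carrier, read 1315, 1395 and 3021 against 7302, 21.5 and 1908, and its WT 2 signal stood at -7.64 from the mean of WT 1 and WT 3. The sign of its difference therefore rests on that array, at 1.46 with it and -1.09 without it. Maf, a transcription factor of resident macrophages, read 127, 186 and 306 against 726, 385 and 296, a difference of -0.79 (-1.21 without WT 2), and 1 of its 4 tested probe sets had the opposite sign (0.34). Hmox1, which degrades heme, read 119, 90.0 and 196 against 241, 146 and 122, a difference of 0.00 with all arrays that was -0.40 without WT 2, -0.06 with quantile normalization and -0.31 without centring. Spic, the transcription factor of red pulp macrophages, was dim on all arrays, at 28.8 to 37.1 in DKO and 32.9 to 122 in WT, a difference of -0.32. Its genotypes overlapped as deposited and lay apart only once the arrays were centred, at 5.82 on DKO 2 and 5.88 on WT 3.

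**Figure D3:**
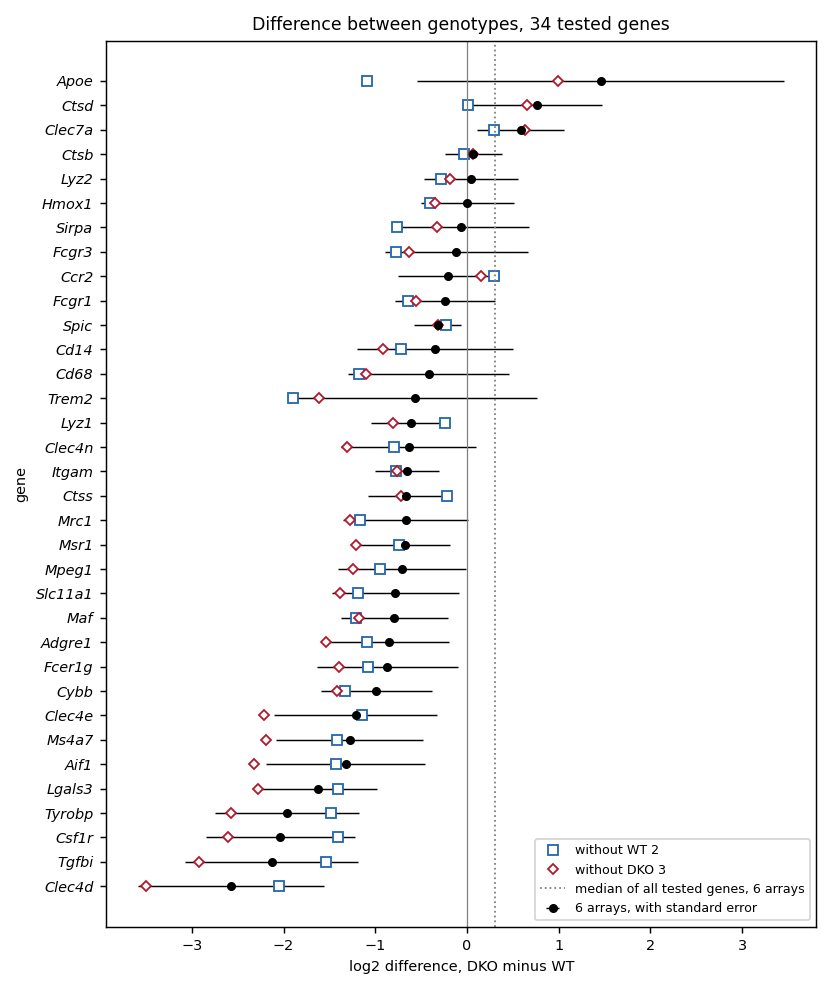
The log2 difference between genotypes for the 34 tested genes, as points with standard errors for all 6 arrays, open squares without WT 2 and open diamonds without DKO 3, with the median of all tested genes as a dotted line. The differences run from -2.57 for Clec4d to 1.46 for Apoe, most move left when DKO 3 is left out, and Apoe changes sign without WT 2.

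How far a gene spread over the 5 arrays other than WT 2 differed between roles. The median range was 1.19 on the log2 scale for the 7 lysosome and phagosome genes, 2.58 for the 7 identity markers, 2.99 for the 5 pattern receptors and 3.06 for the 5 Fc receptors and adaptors. It was 0.73 over all tested genes. A range of at least 2 was seen for 22 of the 34 genes (5.77% of all tested genes). Those with ranges under 1 were Spic (0.40), Ctss (0.65), Ctsb (0.74), Ctsd (0.90) and Clec7a (0.99), and the widest were Clec4d (4.55), Trem2 (4.08) and Aif1 (3.70).

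The counts for partners of these proteins moved with WT 2, as did the share of all tested genes, and most for ITAM and NADPH oxidase partners. They are to be read against 29.8% of all tested genes lower with all arrays and 48.3% lower without WT 2. DKO 3 lay above DKO 1 and DKO 2 for 53.8% of all tested genes. Of 14 tested ITAM signalling kinases and partners, 6 read lower with all arrays (median 0.09) and 12 without WT 2 (median -0.15), with 0 past the threshold. DKO 3 lay above DKO 1 and DKO 2 for 13 of these 14. Fgr, a Src family kinase of myeloid cells, differed by -0.61 and Lcp2, the adaptor SLP-76, by 1.06. Of 15 other lysosome genes, 6 read lower with all arrays (median 0.18) and 8 without WT 2 (median -0.0061), with 0 past the threshold, and DKO 3 lay above DKO 1 and DKO 2 for 9. Ctsh, an aminopeptidase cathepsin, had signals of 374, 285 and 1484 on the knockout arrays and 1383, 7509 and 1209 on the wild type arrays, and Lamp1, a general lysosome membrane protein, differed by 0.79. Ctsh was thus low on DKO 1 and DKO 2, and DKO 3 lay above WT 1 and WT 3. Of 4 tested NADPH oxidase partners 1 read lower with all arrays (median 0.48) and 4 without WT 2 (median -0.28), 0 passed, and DKO 3 lay above DKO 1 and DKO 2 for all 4. Ncf1, the cytosolic organiser of the oxidase, read 186, 176 and 1570 against 1481, 715 and 1387, while Rac2 differed by 1.77 with all arrays and -0.05 without WT 2. In iron and heme handling 5 of 8 read lower with all arrays (median -0.07) and 6 without WT 2 (median -0.23), among them Slc40a1, the iron exporter ferroportin, at 66.2, 55.3 and 480 against 722, 808 and 448. Slc40a1 differed by -1.89 and Vcam1, an adhesion molecule, by 0.64, and 0 of the 8 passed. Of 7 tested genes of the CSF1 and macrophage growth axis, 2 read lower with all arrays (median 0.58) and 3 without WT 2 (median 0.11), and 0 passed. Irf8, a transcription factor of monocytes and B cells, differed by 1.51 (0.75 without WT 2), and Klf4, a factor of monocyte differentiation, by 1.13. Of 11 further monocyte genes 8 read lower with all arrays (median -0.33) and 9 without WT 2 (median -0.41), and 0 passed. Ace, the angiotensin-converting enzyme, differed by -0.67 and Fn1, fibronectin, by 0.80. For the iron and heme, growth axis and further monocyte genes, DKO 3 lay above DKO 1 and DKO 2 in 6 of 8, 4 of 7 and 6 of 11.

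Markers of several other cell types also differed between the arrays. With all arrays 29.8% of all tested genes read lower and 8862 of 12627 read higher, and 48.3% read lower without WT 2. Summed signals of these lists include listed genes that were too dim to test. All 11 tested granulocyte markers were below every WT array on both DKO 1 and DKO 2 (10.2% of all tested genes). All 11 were higher on DKO 3 than on those 2 (53.8%). Their median deviations were -2.51, -2.30 and 1.53 on the knockout arrays and 2.31, 0.42 and 0.67 on the wild type arrays. The summed signal of the granulocyte list was 575 to 26831 in DKO and 18687 to 177746 in WT. On DKO 1 and DKO 2 it was 606 and 575. Ltf, which encodes the granule protein lactoferrin, read 5.32 and 4.44 there, below those arrays' medians of 55.3 and 53.9. Other markers of the list lay above these medians, among them S100a8 at 190 and 186 and S100a9 at 130 and 123. Of the 6 tested T and NK markers 5 read higher in DKO, with a summed signal of 3922, 2558 and 570 on DKO 1 to 3 and 359 to 1642 in WT. Most of that sum was Thy1, at 3389, 1617 and 490 on DKO 1 to 3. All 4 tested mast cell and basophil markers read higher, with sums of 1439, 1101 and 190 in DKO and 168 to 599 in WT. Of 7 dendritic cell markers 1 read lower with all arrays and 3 without WT 2 (sums of 2624 to 3237 in DKO and 1073 to 3300 in WT). Of 11 B lineage markers 4 read lower, both with all arrays and without WT 2. Of 5 erythroid and megakaryocyte markers 3 read lower, with sums of 520, 585 and 4544 in DKO and 2469 to 5579 in WT. Of 3 osteoclast markers 2 read lower, including Mmp9, which is also among the granulocyte markers. Sums of the osteoclast list were 538 to 936 in DKO and 846 to 1078 in WT. Of 4 stromal and endothelial markers 1 read lower, with sums of 516 to 1034 in DKO and 511 to 812 in WT. None of these markers passed the threshold, and the part of other cells in the monocyte and macrophage values was not tested.

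**Figure D4:**
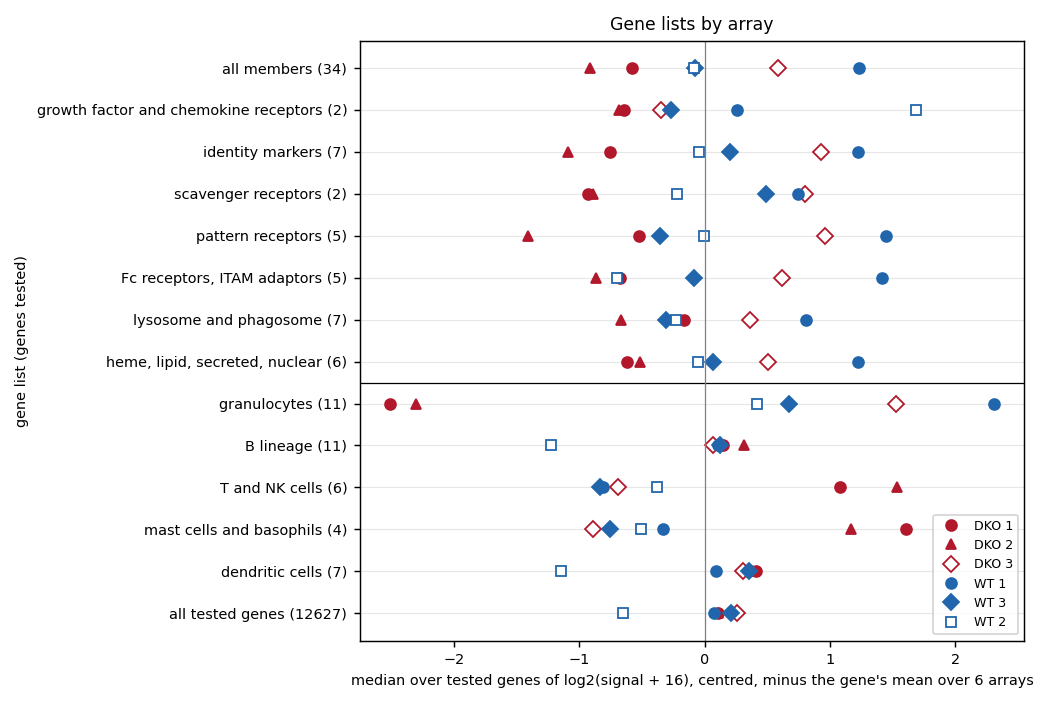
The horizontal axis gives, for each array, the median over a list's tested genes of centred log2(signal + 16) minus the gene's mean over 6 arrays, with red marks for DKO, blue for WT and open marks for DKO 3 and WT 2. DKO 1 and DKO 2 lie left of DKO 3 and WT 1 for all 7 roles and far left for granulocytes (-2.51 and -2.30), and right of the others for T and NK cells and for mast cells and basophils.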

How the data were processed

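Per the submitters' processing notes the authors made the deposited values with MAS5, as signal intensity on a linear scale, 1 value per probe set and array. With 2% of values trimmed at each end, every array had a mean signal of 500.0, as scaling to 1 target gives. The genome build is not given in the sources used here, and detection calls and batches were not used. Groups came from the sample titles.

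Of 45101 probe sets, 64 controls served for quality only. Of the rest, 34945 had 1 gene symbol, 932 several and 9160 none, and the first kind was named. Intensity became log2(intensity + 16), which understates changes of dim genes, and each array was centred on its median, since medians spanned 1.13. The 27022 probe sets whose mean exceeded percentile 40 went into a fit with limma 3.58.1 (R 4.3.3) on genotype alone, with variances following a trend in mean signal, two-sided, adjusted by Benjamini-Hochberg at 0.05. The fit was tested on simulated data. The same tested set and brightest probe set per gene were kept in the other settings, apart from those that change them. All listed genes are named, and of each partner list the 2 with the smallest unadjusted p. Members and lists were chosen with earlier results of these data known. Python 3.11.15 drew the figures. The settings tried were quantile normalization, no centring, pseudocounts 1 and 64, no filter, percentile 60, variances without trend, array weights, each array left out, the replicate number as a block and the mean over a gene's probe sets.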

Additional observations from a re-analysis of the deposited data

How the results depend on the processing

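With each array left out in turn, the listed genes with lower mean signal in DKO numbered 22 to 31 of 34 and their median difference was -1.20 to -0.26, with 0 past the threshold each time. In the planned settings other than array weights the median kept its sign and 0 listed genes passed. Over all probe sets, limma called 2 with all arrays and 0 to 7 with 1 left out, 0 with quantile normalization, no centring, pseudocount 1 and the replicate block, and 1 with a filter at percentile 60. Array weights gave 922 calls over all probe sets, 12 among the listed genes and a median of -1.75; the default method for the weights did not converge, so the gene-by-gene method was used. The share of all tested genes with lower mean signal was 29.8%, and 49.1% with quantile normalization, 50.6% without centring and 48.3% without WT 2.

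Some genes changed sign between settings. With 1 array left out the ranges were -1.18 to 0.22 for Cd68, -0.76 to 0.69 for Sirpa, -0.92 to 0.53 for Cd14, -0.65 to 0.28 for Fcgr1, -0.78 to 0.56 for Fcgr3, -1.90 to 0.44 for Trem2, -0.64 to 0.30 for Ccr2, -0.28 to 0.52 for Lyz2, -0.40 to 0.38 for Hmox1, -0.070 to 0.30 for Ctsb, -1.09 to 3.17 for Apoe and -0.046 to 2.85 for Rac2. Lyz2, Ctsb and Hmox1 read -0.051, -0.017 and -0.057 with quantile normalization, -0.27, -0.25 and -0.31 without centring and -0.064, -0.038 and -0.030 with pseudocount 64. With array weights they read -0.90, -0.16 and -0.87, and Ccr2 read 0.71, Ctsd -0.37 and Apoe -1.69. The cause was not tested beyond the arrays and settings named.

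The replicate numbers did not consistently pair the arrays. Deviations of same-numbered arrays from their group means, WT 2 included, correlated at -0.15, -0.0019 and 0.33. DKO 3 alone among the DKO arrays correlated best with its own number. Over all probe sets DKO 3 correlated at 0.982 with WT 3, against 0.956 with DKO 1 and 0.964 with DKO 2. With the replicate block the listed genes gave 28 lower and a median of -0.66, as without it.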
